A study of Mus musculus with 2 samples.

Results

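Cells called acinar here, in which the submandibular gland C protein gene Smgc made up a large part of the captured transcripts, were described. They came from single-cell RNA-seq of the mouse submandibular gland. The name follows their markers, and some members were also rich in intercalated duct genes (below), so it is not settled for each member. Members were chosen by measured values: a barcode entered when Smgc supplied at least 2% of its UMIs (tags that each mark 1 captured transcript) and 4 limits on other genes held. Mucl2 and the secretoglobins Scgb1b27, Scgb2b26 and Scgb2b27 together had to stay under 5%, and the kallikreins Klk1 and Klk1b under 8%. Krt14 and Krt17 together had to have under 3 UMIs, and the leukocyte gene Ptprc none. A barcode was kept as a cell when it held 200 genes or more and less than 20% of its UMIs were mitochondrial. Of 4086 such kept cells, 346 were members, 298 of them in the wild-type library and 48 in the KO library. The levels of these selecting genes in members are therefore descriptions of the choice.

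There was 1 library of the p63 WildType mouse genotype and 1 of the p63 KO mouse genotype, both from adult mice of 12 weeks. p63, encoded by Trp63, regulates transcription in the basal layer of stratified and glandular epithelia. The labels name the material primary epithelial progenitor cells, while the protocol describes whole gland taken apart into single cells, and both libraries held immune and endothelial cells. How p63 was removed, in which cells, which exons were deleted and whether glands were pooled is not stated. Each genotype is a single library, so none of the differences below has a replicate check. A difference between the libraries cannot be told apart from a difference between mice or preparations, and the 95% intervals cover counting error only.

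Acinar cells of the salivary glands are secretory epithelial cells that make the proteins of saliva in a large endoplasmic reticulum, store them in granules and release them into the duct lumen. They also drive the flow of water by moving chloride across the cell. In rodents Smgc is known as a product of the young gland that persists in some cells of the adult, and it shares its locus with the mucin gene Muc19. Pip, the prolactin-induced protein, is a secreted protein of acinar cells. Aqp5 is their apical water channel, Cldn10 is a tight junction protein of ion-transporting epithelia, and Lman1l is a relative of the ER cargo receptor Lman1.

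Smgc and Pip, which supplied 16.9% and 5.52% of the summed member UMIs in the wild-type library and 7.24% and 16.3% in the KO library, were followed most closely. The DNA directly before each is shown because their levels went up together across the members of each library (below). In GRCm38, Smgc (ENSMUSG00000047295) lies on chromosome 15 from 91838265 to 91861438 on the plus strand, overlapping the annotated Muc19 locus over 23113 bases on the same strand. Muc19 was not analysed here, and transcripts from the shared bases cannot be assigned to either gene. Pip (ENSMUSG00000058499) lies on chromosome 6 from 41847535 to 41852065, with Sval2 on the same strand 923 bases further on. The windows come from RefSeq promoters of build GRCm38.p6 and stop before the first annotated transcript start, at chr15:91838078-91838264 and chr6:41847299-41847534, both on the plus strand. Capitals mark TATAAA or TGTTTAC on either strand.
Smgc: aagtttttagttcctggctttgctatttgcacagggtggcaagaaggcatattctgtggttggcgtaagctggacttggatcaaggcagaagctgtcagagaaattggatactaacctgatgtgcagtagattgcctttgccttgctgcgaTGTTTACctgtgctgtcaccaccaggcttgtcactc
Pip: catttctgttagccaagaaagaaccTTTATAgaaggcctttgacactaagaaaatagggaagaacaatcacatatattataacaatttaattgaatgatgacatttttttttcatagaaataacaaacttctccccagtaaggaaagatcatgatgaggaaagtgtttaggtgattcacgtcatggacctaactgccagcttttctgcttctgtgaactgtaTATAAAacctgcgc
The forkhead motif TGTTTAC occurred once in the 187 bases before Smgc, against 2.46% of 32851 promoter windows of that length, and TATAAA (8.62% of windows) did not occur there. Before Pip, TATAAA occurred 2 times in 236 bases, against 11.95% of windows with at least 1 match, and TGTTTAC (2.99%) did not occur. The E-box CAGCTG had no match on either strand of these windows (9.62% and 12.2% of windows hold it), nor had the E-box CATATG (2.79% and 3.35%) or the ETS motif TTCCGG (7.26% and 10.8%). These are matches of letters and say nothing of binding.

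Members were 17.9% of kept cells in the wild-type library (298 of 1663, exact binomial 95% interval 16.1 to 19.8) and 1.98% in the KO library (48 of 2423, 1.46 to 2.62). In the KO library fewer such cells and less Smgc RNA per cell cannot be told apart by this rule, since 18 KO cells but only 6 wild-type cells had Smgc from 1% to under 2% of UMIs, against 8 and 8 from 2% to under 3%. The share also depends on which barcodes were deposited and kept. In wild-type and KO respectively, 1970 and 4726 barcodes were deposited, of which 307 and 2303 were removed by the filter. Of the removed, 5 wild-type and 0 KO barcodes met the rest of the rule. Members had a median of 3850 UMIs (2183 to 10797) in the wild-type library and 5546.5 (1327 to 13688) in the KO library, where other kept cells had medians of 3281 and 2055. Their median mitochondrial share was 5.16% and 3.44%. The libraries shared 11 barcodes, and 1 wild-type member carried one of them.

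Acinar markers that the rule did not use were more frequent in members than in other kept cells. The summed intercalated duct markers, in members mostly Wfdc18, were not lower (below). Aqp5 had a UMI in 62.1% of wild-type members (185 of 298) and 75% of KO members (36 of 48), against 12.4% and 2.44% of other kept cells and 7.14% and 0% of immune cells, which served as the reference for free RNA in the droplets. In the KO library 0 of 197 KO immune cells carried it, which allows up to 1.86% (exact interval). Lman1l had a UMI in 43.6% and 39.6% of members against 2.71% and 0.589% of other kept cells, and Cldn10 in 64.1% and 89.6% against 16.3% and 13.9%. Pip, Aqp5, Lman1l and Cldn10 together reached 3 UMIs in 296 of 298 wild-type members and in each of the 48 KO members. Immune reference cells were shallower (median 2602 and 1643 UMIs); with each cell thinned to 1000 UMIs, Aqp5 was found in 24.2% and 29.2% of members and in 2.38% and 0% of immune cells.

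Markers of immune, endothelial and basal cells were low in members, and the summed markers of intercalated ducts were not. The 6 intercalated duct markers summed to 8014 per 1000000 UMIs in wild-type members (244 of 298 with a UMI) and 5706 in KO members (22 of 48), against 7079 and 5543 in other kept cells. The median per member was 7.29 and 0 per 10000 UMIs. Most UMIs of these sums in members were of Wfdc18. It had 4246 UMIs in the 43 wild-type members with 5 to 10% Smgc and 751 in the 22 KO members with 2 to 5%. Over all wild-type and KO members Krt7 had 200 and 15 UMIs and Gstt1 175 and 5. The 8 striated and excretory duct markers summed to 266 and 386, against 540 and 957 in other kept cells, and the 5 basal duct markers to 25.7 and 7.36, against 1479 and 240.0. The part of duct cells in the differences between the libraries was not tested beyond leaving out the members rich in Wfdc18 (below). Trp63 itself had 1 UMI in the members of each library, while 120 of 1365 other kept wild-type cells and 18 of 2375 other kept KO cells carried a UMI of it. A 3' tag can lie outside the deleted exons, so this checks little. Of 6 pan-immune markers, 1 was at 0 in wild-type members and all 6 were at 0 in KO members. The 1 at 0 in wild-type members was Ptprc, which the rule set at 0 in each member. The 7 macrophage markers summed to 131 per 1000000 UMIs in wild-type and 18.4 in KO members, with 4 at 0 in the latter. The 5 neutrophil markers summed to 1.56 and 3.68 per 1000000, with 3 and 4 at 0, and the 7 endothelial markers to 49.1 and 29.4. Haemoglobin and Alas2 summed to 7884 per 1000000 UMIs in wild-type members and 427 in KO members; 10 wild-type members had at least 1% haemoglobin. Mucl2 and the secretoglobins, selecting genes that had to stay low, summed to 8576 per 1000000 in wild-type and 7119 in KO members. They summed to 115785 and 3524 in immune cells of the same libraries. How the wild-type immune sum was spread over cells was not examined.

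The libraries differed in the balance of Smgc and Pip in members. Smgc supplied a median of 18.0% of UMIs in wild-type members (2.06 to 36.9%) and 5.23% in KO members (2.13 to 21.2%), as a description, since Smgc chose them. Pip, which did not choose them, supplied a median of 4.31% (0 to 25.7%) in wild-type members and 15.2% (1.22 to 37.3%) in KO members. Pip UMIs exceeded Smgc UMIs in 7 of 298 wild-type and in 43 of 48 KO members. The median number of Pip UMIs per Smgc UMI was 0.257 (0 to 1.86) and 2.63 (0.363 to 8.22). The libraries overlapped in each gene and in the ratio, with most KO members above most wild-type members in Pip and below them in Smgc. Members held 93.1% of all Smgc UMIs of kept wild-type cells and 85.2% in the KO library, but 38.1% and 31.0% of all Pip UMIs.

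**Figure D1:**
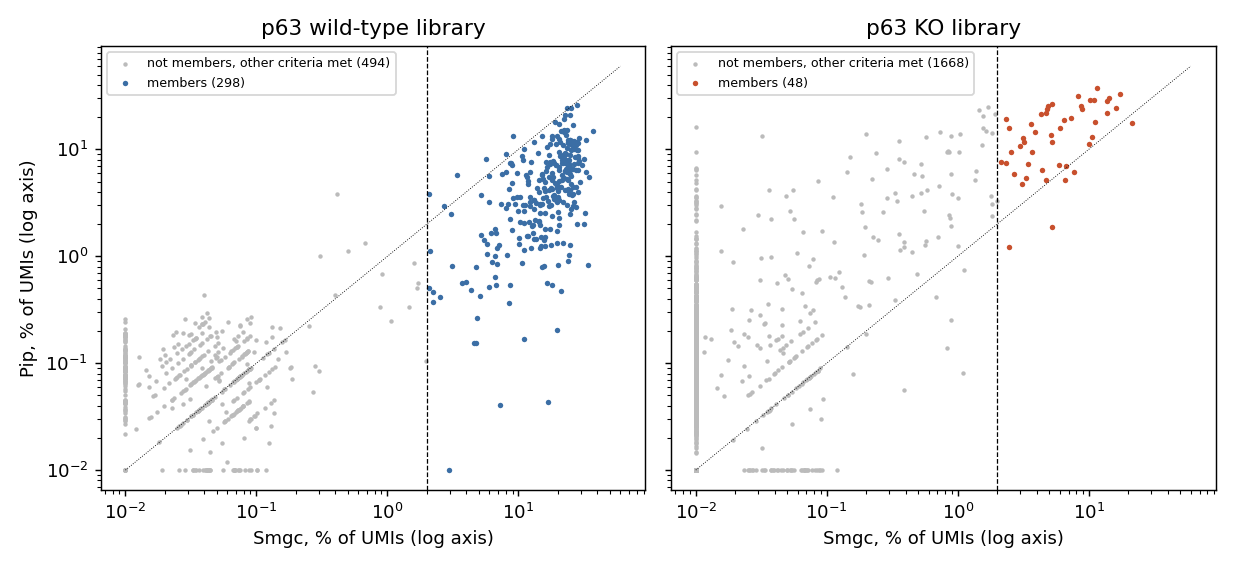
Each point is 1 kept cell that met the other criteria of the rule; the axes give the share of its UMIs from Smgc and from Pip on log axes, with cells below 0.01% drawn at 0.01%. The dashed line marks 2% Smgc and the dotted line equal shares: 43 of 48 KO members lie above equality, against 7 of 298 wild-type members, and KO cells with much Pip run on to the left of the dashed line.

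Just outside the rule, cells that met the other criteria with Smgc from 1% to under 2% had a median Pip share of 0.421% in wild-type and 10.2% in KO cells, against 0.482% and 8.49% just inside, from 2% to under 3%. These groups were small and unlike in Wfdc18. Its median share just outside and just inside was 3.76% and 1.19% in wild-type cells (n = 6 and 8). In KO cells (n = 18 and 8) it was 0.037% and 0.369%. The part of Wfdc18-rich cells in these Pip shares was not tested. Among kept cells that met the other criteria, Pip reached at least 5% with Smgc under 2% in 40 KO cells and in 0 wild-type cells. These 40 cells had a median Smgc share of 0.530% and a median Pip share of 9.47%. Their level of Wfdc12, counted per 1000000 UMIs other than those of the selecting genes (the scale of every level below), was 13972, against 22070 in KO members. Their level of Fgg was 1424 and of Bnip3 230, against 1844 and 305, and their level of Aqp5 was 129 against 389. In kept cells with at least 5% Mucl2 and secretoglobins that met the limits on kallikreins, keratins and Ptprc (160 wild-type and 34 KO), Fgg stood at 4.36 and 30.8, while Wfdc12 stood at 12348 and 43396.

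Within each library, cells with more Smgc also had more Pip. Over members, Spearman's correlation between the Smgc share and the Pip level was 0.61 in the wild-type library (n = 298) and 0.62 in the KO library (n = 48). Cells of 1 library share its depth and its free RNA, so these are descriptions without a p. Wfdc12, which encodes a secreted protein with a WAP four-disulfide core, followed at 0.43 and 0.43. The next genes by the weaker of the 2 values were Fxyd3 (0.44 and 0.40), a modulator of the sodium pump, and Chchd10 (0.35 and 0.37), a mitochondrial protein. They were followed by the claudin Cldn10 (0.28 and 0.37), the nucleotide kinases Cmpk1 (0.27 and 0.39) and Nme1 (0.25 and 0.28), and the cargo protein Tmed3 (0.36 and 0.22). At the other end stood Tmem176a (-0.55 and -0.45), the class I antigen gene H2-K1 (-0.47 and -0.42), the RNA-binding protein gene Zfp36l1 (-0.41 and -0.46) and the heat shock gene Hspa1b (-0.40 and -0.44). Near them were Ly6e (-0.53 and -0.38), the nuclear RNA Malat1 (-0.53 and -0.38), the Notch target Hes1 (-0.37 and -0.39) and the stress gene Gadd45b (-0.36 and -0.43). The Smgc share itself was nearly unrelated to total UMIs (-0.09 and 0.09). Against the UMIs other than those of the selecting genes, by which these levels are divided, it stood at -0.31 and 0.04.

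Members poor in Smgc in the wild-type library carried Wfdc18, another gene of the WAP family, listed here among the intercalated duct markers. The wild-type members numbered 18, 43, 114 and 123 in the classes of 2 to 5%, 5 to 10%, 10 to 20% and over 20% Smgc. Their median Wfdc18 share was 1.45%, 1.45%, 0.095% and 0.017%. The KO members numbered 22, 14, 11 and 1, and their median Wfdc18 share was 0 in each class. Spearman's correlation between Wfdc18 and the Smgc share was -0.62 and -0.25. Wfdc18 reached 0.5% of UMIs in 88 wild-type (29.5%) and 10 KO members (20.8%), and 30 and 5 members lay between 0.25% and 1%.

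Those 88 wild-type members differed from the other 210 in duct genes as well. The limit and the genes named here were chosen after the values were seen, so the following levels are descriptions. Of the 6 intercalated duct markers, the receptor Kit had 58 UMIs in the 88 cells and 2 in the 210 (42.8-fold higher per UMI, counting interval 11.3 to 362). Nkd2, an inhibitor of Wnt signalling, had 56 and 1, and the keratin Krt7 was 5.08-fold higher (3.62 to 7.25). Gstt1 was 1.30-fold (0.954 to 1.77), and Sfrp1 had no UMI. The chloride channel Ano1 (13.3-fold, 6.89 to 28.6), the ligand Wnt4 (55 against 4 UMIs), the transcription factor Elf5 (54 against 7), the cyclin Ccnd1 (7.03-fold, 5.04 to 10.0) and the secreted peptide Esp4 (9.83-fold, 6.80 to 14.6) were higher in them too. The median Smgc share of these cells was 9.77%, against 21.1% in the other 210, and they held more genes (median 1786.5 against 1015). In the KO library the 10 cells with at least 0.5% Wfdc18 had 7.23% Pip against 17.4% in the other 38. Their part in the differences between genotypes is given below by leaving them out.

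**Figure D2:**
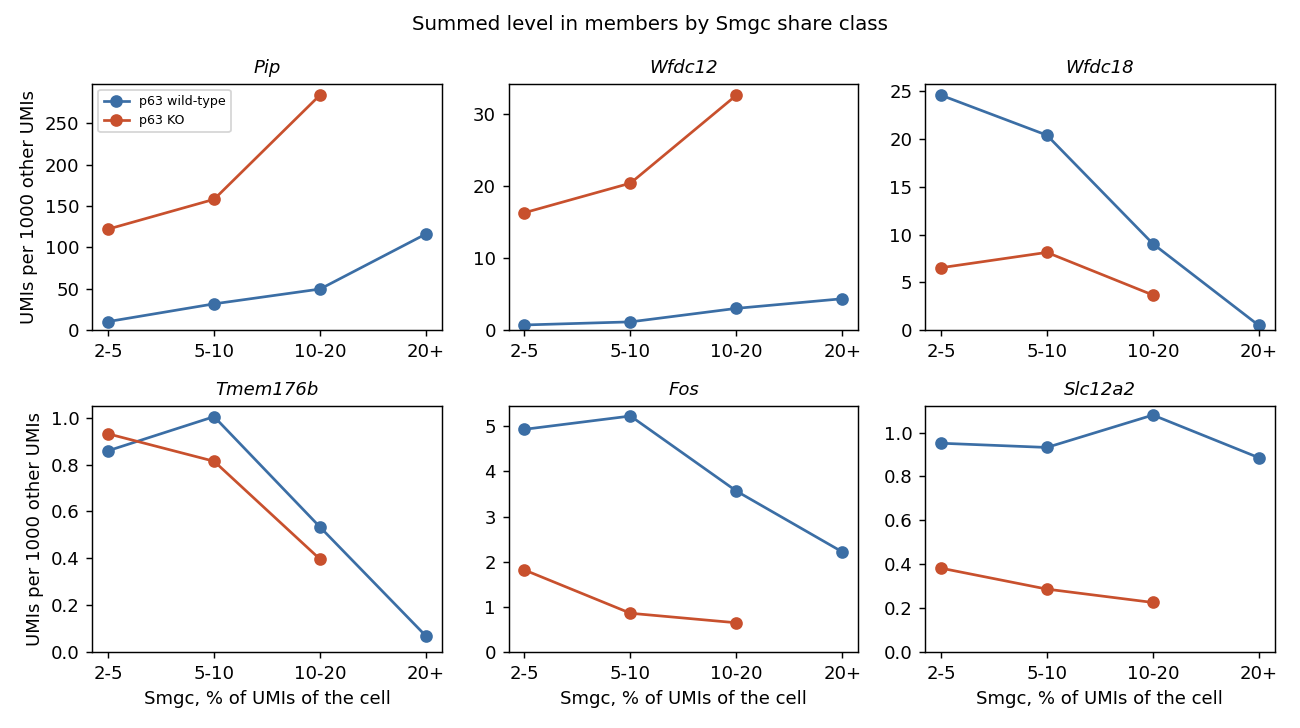
Summed UMIs per 1000 UMIs other than those of the selecting genes are plotted for 6 genes by Smgc share class, from 0 on each vertical axis; lines join the classes of a library, and the class over 20% is not drawn for the KO library, which has 1 cell in it. Pip and Wfdc12 go up with the Smgc share and are above the wild-type values at each KO class, Wfdc18 and Tmem176b are lowest in the highest class drawn for each library, and Fos and Slc12a2 are below the wild-type values at each KO class.

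Compared with all other kept cells of the same library, 45 of 7549 genes (0.596%) were higher and 158 (2.09%) lower in members of both libraries by the size rule used throughout. That rule asks for at least 50 UMIs in the 2 sets together and a counting interval of the ratio wholly beyond 2-fold. Sval2, a secreted relative of Pip, led by the smaller of its 2 ratios, at 16 (11 to 24.0) in wild-type and 19.6 (15.2 to 25.1) in KO cells. Tll1, a secreted metalloprotease, followed at 49.5 (25 to 112) and 14.4 (7.70 to 26.1), and the serpin Serpinb11 at 24.1 (15.4 to 39.0) and 9.91 (7.53 to 12.9). Further down came the fibrinogen chain Fgg (6.77 and 15.5) and the transcription factors Spdef (4.41 and 12.7), which is known from mucus-secreting cells, and Tfap2b (4.28 and 5.92). The list went on with the prolactin receptor Prlr (11.7 and 4.14), the amino acid transporter Slc38a1 (7.34 and 5.95), Gdpd1, Fam161a, Cmpk1, Otud3, Tnfrsf21, Phyh and Cd164l2. Set against only those other cells that carried an Epcam UMI, 77 genes were lower in both libraries. The basic helix-loop-helix factor Bhlha15 (Mist1), a known regulator of secretory cells, was not among the 45 genes higher in members of both libraries. It was singled out after its values were seen. Its 39 UMIs in wild-type members gave a ratio of 1.47 (0.999 to 2.11), and it had 1 UMI in KO members.

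Between the libraries, 54 of 2868 genes tested were higher in KO members by that rule (1.88%) and 89 lower (3.1%), together 4.99%, with the selecting genes left out. Defence and acute-phase genes and genes known to respond to glucocorticoids or fasting were among the higher genes, and components of the ER, of chloride uptake and of the early stress response were among the lower ones. The median over all 7692 genes with at least 10 UMIs was -0.16 (log2 KO over wild-type, 10 per 1000000 added to each level). Pip and Wfdc12 took up more of the UMIs of KO members, and the split of the calls depended on the denominator. Here 54 of 143 genes past the rule were higher (37.8%), but with all UMIs as the denominator 70 were higher and 56 lower (55.6%), and with Pip and Wfdc12 also taken out of the denominator 77 and 46 (62.6%).

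**Figure D3:**
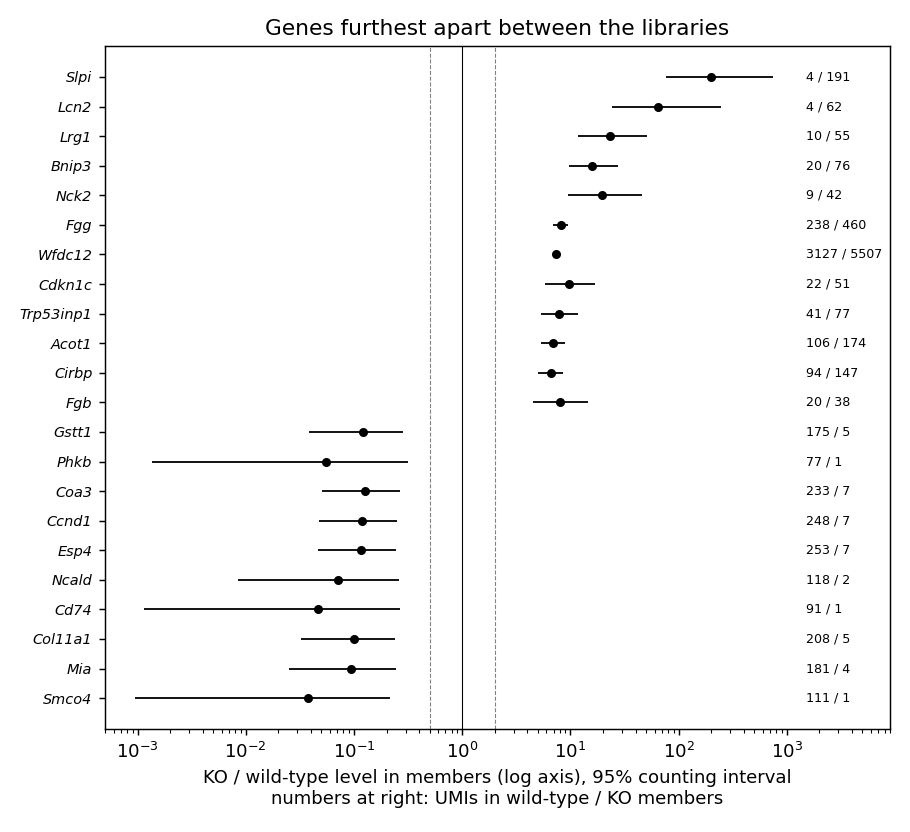
The ratio of KO to wild-type level in members is plotted on a log axis with its 95% counting interval, for the 12 highest and the 12 lowest named genes past the size rule, and the UMIs behind each ratio stand at the right. Agr2 and Dclk1, with no UMI in KO members, are not drawn, and dashed lines mark 2-fold. The higher genes run from Cirbp at 6.58 to Slpi at 201.

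Among saliva genes, Pip was 2.63-fold higher in KO members (2.60 to 2.67), with 70787 UMIs in wild-type and 44325 in KO members; it was the only one of 3 tested saliva and mucin genes past the rule. The proline-rich protein gene Prol1 had a ratio of 0.737 (0.625 to 0.865) and the secreted carbonic anhydrase Car6 0.781 (0.553 to 1.08). Dcpp1 had 34 UMIs in wild-type members, all in 1 cell, and 10 in KO members. The list's median was -0.39 over 6 genes with at least 10 UMIs. With genes at 0 UMIs set at the bound that a floor of 3 UMIs gives, it was -0.17. Lyz1 and the other listed genes under 10 UMIs were too sparse to describe, and Mucl1 and Muc19 were not analysed here. Sval2, the neighbour of Pip, was 4.21-fold higher (3.23 to 5.48), with 118 UMIs in either library.

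Acute-phase and defence genes were higher in KO members in 6 of 10 tested members of the list and lower in 0, with a median of 1.27 over 13 genes. The same list had a median of 0.77 in other kept cells, 0.89 in endothelial cells and 0.03 in immune cells. Wfdc12 had a lowest, median and highest level per cell of 0, 20.4 and 399 per 10000 other UMIs in wild-type members and of 12.7, 197 and 646 in KO members, so that the ranges overlapped. The summed Wfdc12 ratio was 7.41 (7.09 to 7.74). Fgg, the gamma chain of fibrinogen (chromosome 3 from 83007724 to 83015049), had a UMI in 75 of 298 wild-type members (25.2%) and in 44 of 48 KO members (91.7%), or in 13.1% and 64.6% at 1000 UMIs per cell. The Fgg ratio was 8.13 (6.94 to 9.55). The Fgg level was 2.52 and 2.81 in immune cells of the libraries. Fgb, the beta chain encoded next to it, had 20 and 38 UMIs, of which 37 of the KO UMIs lay in 5 cells, and did not pass without its highest cell.

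Slpi, a secreted inhibitor of leukocyte elastase, had 4 UMIs in 3 wild-type members and 191 UMIs in 22 of 48 KO members, a ratio of 201 (77.2 to 745). The 5 highest KO cells held 67.0% of its UMIs, so a minority of KO members carried most of it. Of the 22 KO members with Slpi, 21 also had Fgg and 12 also had Lrg1. Over all 48 KO members, 44 had Fgg and 20 had Lrg1. In immune cells Slpi stood at 93.1 in wild-type and 36.6 in KO, and in endothelial cells at 3.54 and 4.24. Lcn2, lipocalin 2, which binds bacterial siderophores, had 4 and 62 UMIs (65.2-fold, 24.2 to 247), and Lrg1, a leucine-rich glycoprotein of the acute phase, 10 and 55 (23.1-fold, 11.7 to 50.9). Lcn2 was higher in the rest of the KO library too, at 332 against 19.1 in other kept cells and 216 against 52.8 in immune cells. The haptoglobin gene Hp (1.42, 1.17 to 1.72) and the NF-kappaB inhibitor Nfkbia (0.802, 0.631 to 1.01) did not pass. S100a9, Retnlg, Cxcr2 and Csf3r, 4 of the 5 neutrophil markers, had no UMI in KO members, while the list summed to 6066 per 1000000 in KO immune cells, 1 of which carried S100a9, and to 8.75 in wild-type immune cells.

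Genes of the glucocorticoid and nutrient stress list were higher in 8 of 15 tested members and lower in 0, with a median of 1.16 over 24 genes. Bnip3, a mitophagy receptor, had 20 UMIs in 20 of 298 wild-type members and 76 in 36 of 48 KO members (16-fold, 9.66 to 27.6), a UMI being present in 6.71% and 75% of cells, or 2.01% and 27.1% at 1000 UMIs. Acot1, an acyl-CoA thioesterase of fatty acid metabolism, had 106 and 174 UMIs (6.90-fold, 5.39 to 8.88), and Trp53inp1, a stress protein of autophagy, 41 and 77 (7.90-fold, 5.34 to 11.8). The stress-induced EGFR inhibitor Errfi1 (2.80-fold, 2.41 to 3.26), the cell cycle inhibitor Cdkn1a (5.23, 3.22 to 8.53), Sesn1 (4.74, 3.24 to 6.95), Zbtb16 (4.48, 2.66 to 7.56) and Txnip (2.50, 2.16 to 2.87), an inhibitor of glucose uptake, also passed, whereas Klf9, a glucocorticoid target, did not (1.95, 1.40 to 2.69). The same list had a median of 1.17 in endothelial cells, 1.13 in all other kept cells and 0.18 in immune cells of these libraries. Acot1 stood at 0.20 in other kept cells and -0.03 in endothelial cells, against 2.67 in members (log2). Outside the lists, the cold-induced RNA-binding protein gene Cirbp was 6.58-fold higher (5.04 to 8.61) and the adaptor Nck2 had 9 and 42 UMIs. In other kept cells the Cirbp value was 1.79 (log2). The cell cycle inhibitor Cdkn1c had 22 and 51 UMIs (9.75-fold, 5.81 to 16.9).

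Fluid secretion genes were lower in 2 of 10 tested members and higher in 0, with a median of -0.31 over 18. Slc12a2, the basolateral sodium, potassium and chloride cotransporter that loads acinar cells with chloride, had a median per-cell level of 8.96 per 10000 other UMIs in wild-type members (0 to 41.8) and 2.67 in KO members (0 to 15). The ranges overlapped, and the summed level was 3.03-fold lower in KO members (2.41 to 3.85). In other kept cells Slc12a2 stood at 0.32 (log2). Lrrc26, a subunit that activates the BK potassium channel, was 4.44-fold lower (2.80 to 7.47), with -2.26 in other kept cells (log2). The water channel Aqp5 (0.923, 0.733 to 1.15) had an interval that held 1, and Atp1b1 had a ratio of 0.620 (0.506 to 0.753).

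Genes for entry into the ER and for folding there were lower in 5 of 30 tested members and higher in 0, with a median of -0.82 over 34 genes, 31 of them below 0. The chaperone Hspa5 (BiP) was 2.75-fold lower in KO members (2.08 to 3.72), the chaperone Hsp90b1 3.34-fold (2.1 to 5.64), the signal peptidase subunit Spcs2 3.07-fold (2.22 to 4.34) and the translocation protein Tram1 3.03-fold (2.15 to 4.37). Agr2, a disulfide isomerase needed for mucin folding, had 75 UMIs in 57 wild-type members and none in KO members, at least 5.94-fold lower with a floor of 3 UMIs over the KO members. The translocon subunits Sec61b (0.453, 0.372 to 0.548) and Sec61g (0.681, 0.566 to 0.814) and the translocon-associated Ssr4 (0.713, 0.570 to 0.885) did not pass. Only 1 of these 5 genes passed with all UMIs as the denominator and none at 1000 UMIs per cell, although the list's median was below 0 with that denominator (-0.66) as well. The list was below 0 elsewhere too, at -0.47 in other kept cells and -0.33 in endothelial cells. By contrast 0 of 15 tested genes of the unfolded protein response passed in either direction (median 0.04), with Herpud1 at 2.26 (1.77 to 2.87) and Manf at 0.636 (0.430 to 0.914). Of 21 tested vesicle and Golgi genes, 1 was lower, the cargo receptor Lman1 (4.70-fold, 2.33 to 11.1), beside a median of -0.24. Vamp8, a SNARE of granule release, had a ratio of 1.18 (1.0 to 1.38). Mucin glycosylation genes had 0 of 3 past the rule in either direction and a median of -0.59. With genes at 0 UMIs set at their bound that median was -0.40.

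Immediate early and heat shock genes, which tissue dissociation is known to induce, were lower in 4 of 26 tested members and higher in 0, with a median of -0.46. Fos had a median per-cell level of 24.4 per 10000 other UMIs in wild-type members (0 to 175) and 3.75 in KO members (0 to 82.6), and was 2.83-fold lower in sum (2.52 to 3.19). Jun was 2.56-fold (2.25 to 2.93), Egr1 2.78-fold (2.29 to 3.41) and Jund 2.57-fold lower (2.0 to 3.35). The heat shock genes Hspa1a (1.07, 1.0 to 1.13), Hspa8 (0.838, 0.784 to 0.895), Hspb1 (0.893, 0.834 to 0.954) and Hsp90aa1 (0.737, 0.680 to 0.797) did not pass. In the other cells the sign was opposite: the list's median was 0.31 in other kept cells and 0.69 in endothelial cells, and Fos stood at 4927 against 3251 in other kept cells. With members taken from 1% Smgc, 0 genes of the list passed, with members from 5% to under 20% Smgc 9 were lower, and with cells chosen by Pip 0 were lower and 1 higher.

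Nuclear genes of oxidative phosphorylation were lower in 3 of 30 tested members and higher in 0 (median -0.81, 29 of 30 below 0). The complex I subunit Ndufs5 was 3.39-fold (2.47 to 4.78), the ATP synthase subunit Atp5j2 2.72-fold (2.18 to 3.43) and the complex III subunit Uqcrb 2.41-fold lower (2.04 to 2.86), while Cox4i1 (0.774, 0.694 to 0.862) did not pass. The median was -0.05 in other kept cells, -0.36 in endothelial cells and -0.78 in immune cells. With all UMIs as the denominator 1 of them passed. Of the lipid and metabolic list, 2 of 13 were lower (median -0.44): G0s2, an inhibitor of triglyceride lipase (7.13-fold, 2.99 to 22.3), and catalase, Cat (4.79-fold, 2.26 to 12.1).

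Antigen presentation genes had a median of -1.13 over 12 genes, with 2 of 7 tested lower. The median was -0.73 with genes at 0 UMIs set at their bound and -0.47 with 50 per 1000000 added. Both, Cd74 (91 and 1 UMIs) and H2-Ab1 (51 and 1), belong to the class II pathway of macrophages and related cells. In wild-type members 41.8% of the Cd74 UMIs came from 1 cell, and macrophage markers differed in the same direction between the libraries' members (131 and 18.4 per 1000000 UMIs). Their part in this result was not tested. The class I gene H2-D1 had a ratio of 1.07 (0.908 to 1.25), H2-K1 of 0.858 (0.680 to 1.07) and B2m of 0.456 (0.341 to 0.600). None of 5 tested interferon genes passed (median -0.78, or -0.45 with genes at 0 UMIs set at their bound).

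Of 13 tested acinar transcription factors, 0 passed in either direction (median -0.38). Sox9, a factor of salivary progenitors and acini, stood at 0.673 (0.549 to 0.818), Xbp1, the driver of ER expansion, at 1.20 (0.886 to 1.62), Ehf at 0.704 (0.495 to 0.979) and Hes1 at 0.416 (0.276 to 0.607). No junction gene of 10 tested passed (median -0.25), with Cldn3 at 1.72 (1.46 to 2.01) and Cldn4 at 1.94 (1.46 to 2.58). No keratin of 3 passed, with Krt18 at 1.76 (1.66 to 1.88) and Krt7 at 0.315 (0.173 to 0.533). Of the TGF-beta, activin and follistatin list, 1 of 2 tested genes was lower, Id2, an inhibitor of helix-loop-helix factors (3.20-fold, 2.31 to 4.55). Of 3 tested cell cycle genes Ccnd1 was lower, with 248 UMIs in 94 wild-type and 7 UMIs in 4 KO members, and Hmgb2 stood at 1.91 (1.38 to 2.62). Among p63 and basal genes 0 of 3 passed in either direction, with Perp, a desmosome protein, at 1.54 (1.25 to 1.88). The median of -0.55 was over 9 genes, among them the selecting genes Krt14 (11 wild-type UMIs and 1 KO UMI) and Krt17 (13 and 0). The rule kept both low in members, so this median is in part a description of the choice. With genes at 0 UMIs set at their bound it was -0.15.

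**Figure D4:**
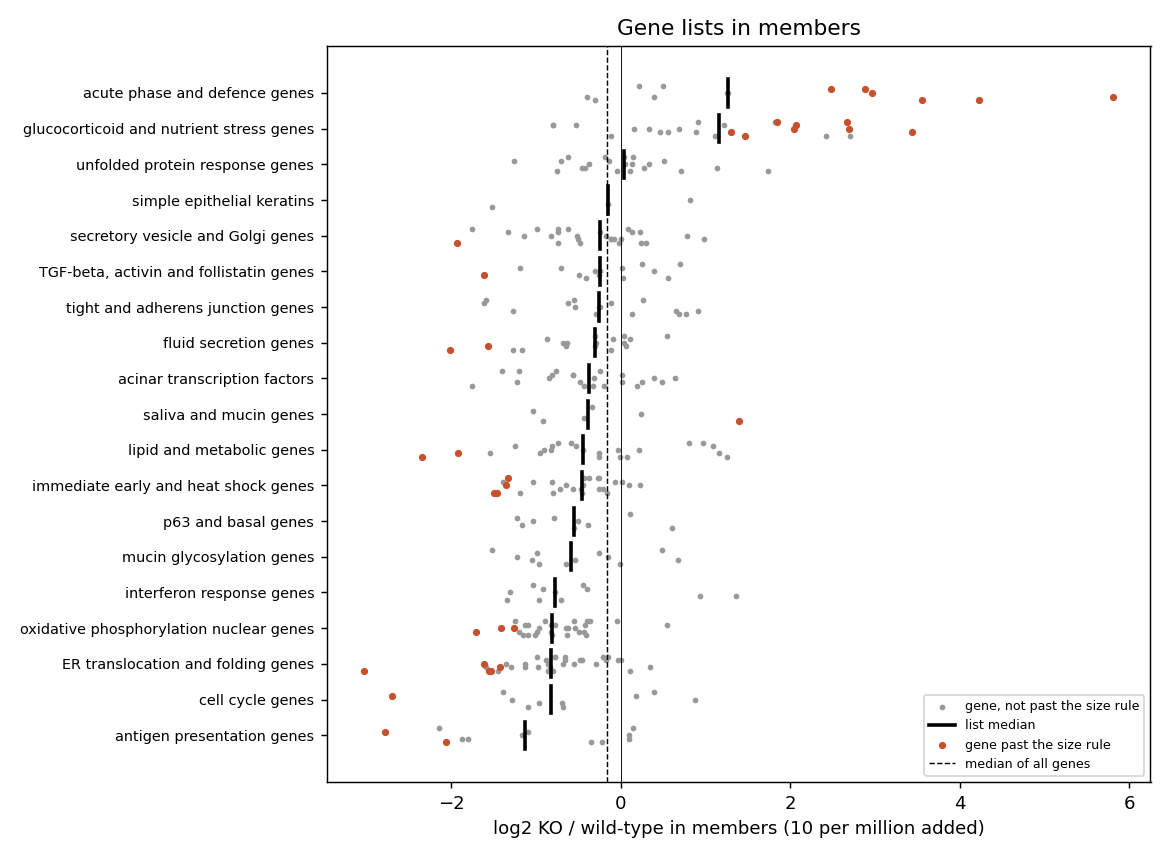
For 19 gene lists, points give the log2 KO to wild-type ratio of each gene with at least 10 UMIs in members, black bars the list median and the dashed line the median of all genes (-0.16); coloured points passed the size rule. The acute-phase list (median 1.27) and the glucocorticoid and nutrient stress list (1.16) lie to the right of the other lists. The points of the p63 and basal list include the selecting genes Krt14 and Krt17.

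The lowest named genes in KO members outside the lists were Smco4 (111 UMIs in wild-type and 1 in KO members), Mia (181 and 4), a small secreted protein known from melanoma, and Dclk1 (63 and 0, at least 4.99-fold lower). Next came Col11a1 (208 and 5), a fibrillar collagen chain, Ncald (118 and 2), a neuronal calcium sensor, Esp4 (253 and 7), Coa3 (233 and 7), an assembly factor of cytochrome oxidase, Phkb (77 and 1) and Gstt1 (175 and 5). Col11a1 was 9.89-fold lower (4.17 to 30.8) with a UMI in 117 wild-type and 4 KO members, and in other kept cells its log2 ratio was -0.15. In other kept cells Coa3, Esp4 and Mia stood at -1.50, -2.30 and -2.15 (log2). Col11a1, Mia and Agr2 also passed among members with under 0.5% Wfdc18 (log2 -3.10, -3.03 and -3.34). Dclk1, Esp4 and Ccnd1, all richer in the Wfdc18-rich cells, no longer passed there (log2 -1.38, -2.0 and -2.33, against -2.81, -2.72 and -2.69 over all members). That comparison holds 210 and 38 cells, and so fewer UMIs. Hspa5, Hsp90b1, Egr1, Jund, Id2, H2-Ab1 and Cat did not pass there either, at -1.25, -1.71, -1.32, -1.32, -1.37, -1.96 and -0.98, against -1.42, -1.62, -1.46, -1.33, -1.62, -2.06 and -1.92 over all members. Lcn2, Nck2, Zbtb16 and Serpinb11 did not pass at 4.63, 3.81, 2.13 and 1.21, against 4.23, 3.26, 1.85 and 1.42. The values of Lcn2, Nck2, Zbtb16 and Hsp90b1 were further from 0 than over all members.

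Since the libraries differ in how much Smgc their members hold, the genes were also compared at like Smgc share. The classes were not alike in Wfdc18. From 2 to 5%, 5 to 10% and 10 to 20% Smgc, its median share was 1.45%, 1.45% and 0.095% in wild-type members. In KO members it was 0 in each class. The part of the Wfdc18-rich cells in the ratios by class was not tested. Pip was 11.7-fold higher in KO members at 2 to 5% Smgc (10.9 to 12.6), 4.97-fold at 5 to 10% (4.81 to 5.12) and 5.71-fold at 10 to 20% (5.6 to 5.83), a larger ratio in each class than over all members. Wfdc12 was 22.5-fold (17.2 to 29.9), 17.6-fold (15.4 to 20.3) and 10.8-fold higher (10.0 to 11.6). Fgg, Bnip3, Acot1, Cirbp and Slpi were higher in each of the 3 classes, and Fos, Jun, Egr1, Slc12a2, Hspa5, Esp4 and the cytochrome Cyp2f2 lower in each, with intervals that did not hold 1. For Slc12a2 the KO level was 2.48-fold (1.68 to 3.70), 3.24-fold (2.0 to 5.59) and 4.77-fold lower (2.90 to 8.42). Cyp2f2, chosen for this comparison after its values were seen, was 6.89-fold, 9.03-fold and 4.70-fold lower. Txnip differed by class, with ratios of 2.15, 1.98 and 0.886 (0.577 to 1.32), as did Prol1, with 1.80 (1.26 to 2.63), 0.612 (0.419 to 0.872) and 0.282 (0.182 to 0.418).

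**Figure D5:**
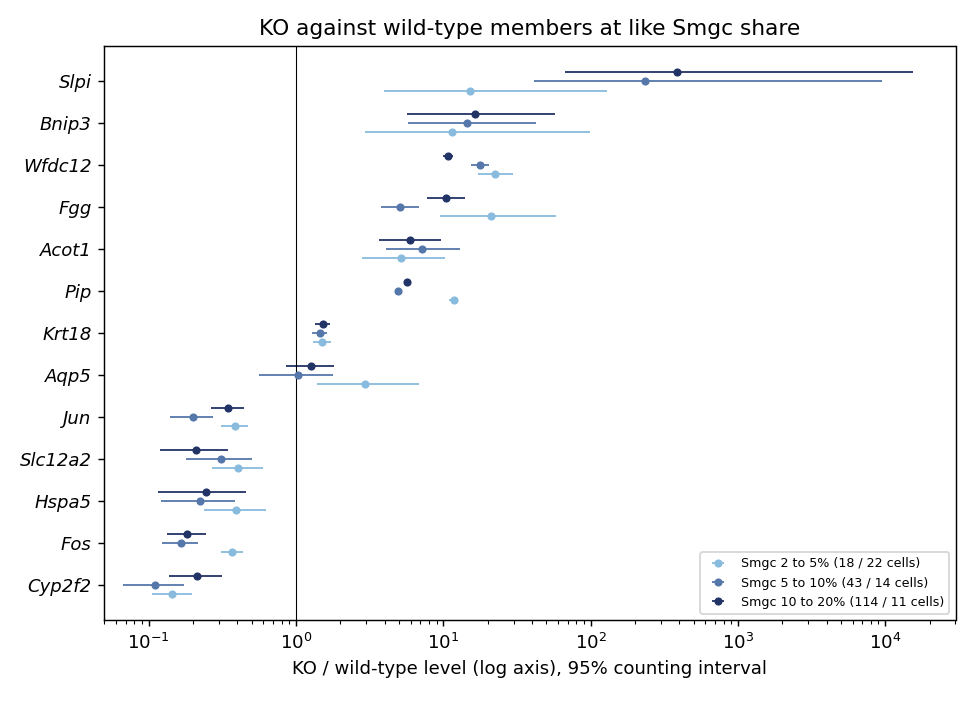
The ratio of KO to wild-type level is plotted on a log axis for 13 genes in 3 classes of Smgc share, with 95% counting intervals and the number of wild-type and KO cells in the legend. Slpi, Bnip3, Wfdc12, Fgg, Acot1 and Pip lie above 1 in each class, and Slc12a2, Hspa5, Jun, Fos and Cyp2f2 below 1 in each.

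Choosing cells by Pip instead of Smgc, an alternative added after the data were seen, gave 133 wild-type and 85 KO cells with at least 5% Pip. There 75 of 1727 genes tested were higher and 70 lower, against 54 and 89 of 2868 over all members. Of these, 42 and 40 were the same genes as above. Pip, now a selecting gene, had a log2 ratio of 0.35. Fos, Jun, Jund and Egr1 no longer passed (log2 -0.91, -0.97, -0.59 and -0.98), nor did Hspa5 (-0.30), while the junction gene Cldn4 (2.24) and Krt18 (1.21) did.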

How the data were processed

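Single-cell libraries were made with 10x Genomics Chromium 3' v2 chemistry, per the labels' protocols. The authors deposited whole-number UMI counts per gene and barcode for each library; Seurat 3.1.2, Cell Ranger 2.1.0, mm10 and bcl2fastq 2.19.1 appear, without roles, in the submitters' processing notes, and no source used here gives the rule for the deposited barcodes. The 27998 Ensembl genes were named from a reference table of gene IDs and symbols, in which 353 had no symbol, and placed with GENCODE mouse M21 (GRCm38). The members and gene lists were chosen with earlier results of these data known.

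Barcodes with fewer than 200 genes or 20% or more mitochondrial UMIs were removed. Libraries held 8811082 (wild-type) and 11828669 (KO) UMIs, and members 1282711 and 271800. UMIs were summed over members of a library and scaled per 1000000 UMIs other than those of the 22 selecting genes (8 outside the 14 Klk1 and Klk1b genes). Secretoglobin, Klk1b and H2 genes have near-identical copies, and strand use in counting is not stated, so reads of such or overlapping genes may be split. Ratios carry exact conditional Poisson 95% intervals, which cover counting error only; a count of 0 was replaced by a floor of 3 UMIs for a bound. Immune and endothelial reference cells (126 and 80 wild-type, 197 and 319 KO) had at least 5 UMIs of their markers. Named genes were the markers and selecting genes, the 12 highest and 12 lowest ratios past the size rule, the 4 genes with most UMIs and those past the rule in each list, the 15 highest genes over other cells and 8 at each end by Spearman correlation with the Smgc share; rankings skipped unnamed models and sex-linked, immunoglobulin, haemoglobin, mitochondrial and ribosomal genes. Scrublet (scanpy 1.11.5) called 1 of 1663 and 4 of 2423 kept cells doublets, no member among them, so it did not work here and doublets were not removed. The size rule was tested on simulated counts. Python 3.11.15, numpy 2.4.6, scipy 1.17.1, pandas 2.3.3 and, for TMM factors, edgeR 4.0.16 were used.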

Additional observations from a re-analysis of the deposited data

How the results depend on the processing

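Of 137 named genes, 40 no longer passed the size rule at 1000 UMIs per cell and 34 at 10% Smgc. From 5% to under 20% Smgc 24 no longer passed, when chosen by Pip 20 and at 5% Smgc 19. Only genes past the rule over all members could be lost, and the 137 include others that had not passed. Over all genes, 13 of 54 higher and 20 of 89 lower calls remained at 1000 UMIs per cell, where 651 genes were tested. At 10% Smgc 14 and 29 remained. Lower UMI minima could lose no call, and leaving out Scrublet doublets removed no member. One gene reversed: Txnip was at -0.051 (log2) among members with at least 10% Smgc, against 1.30. The share of members moved with the filter on barcodes, to 15.4% (wild-type) and 1.02% (KO) with none and 21.4% and 2.94% with minima of 500 genes and a mitochondrial limit of 10%. With the Smgc minimum at 1%, 5% and 10% the KO share was 2.72%, 1.07% and 0.495% and the KO median of Smgc 3.80%, 8.81% and 12.7%; at 10% the wild-type values were 14.3% and 20.3%. Genes higher in KO members numbered 31 of 2462 tested at 5% Smgc and 22 of 1749 from 5% to under 20%. At 10% they numbered 15 of 1839 (48 lower, so 23.8% of those past the rule were higher). With minima of 20 and 10 UMIs they numbered 84 of 5582 and 90 of 7671, and at 1000 UMIs per cell 14 of 651 (25 lower). Genes lower numbered 56 of 2868 with all UMIs as the denominator and 46 of 2868 without Pip and Wfdc12 in it. Without each gene's highest cell they numbered 139 of 2686 (47 higher, 25.3% of those past the rule). Genes lower than in other cells numbered 77 against Epcam-positive cells, and the KO rank correlation of Wfdc18 with the Smgc share was -0.38 at 1000 UMIs. Leaving out each gene's highest cell takes 1 of 48 KO but 1 of 298 wild-type members from its count, with the denominators unchanged. The median over all genes was -0.38 (log2) there, against -0.16. The cause of the other shifts was not tested, apart from the smaller counts that fewer cells or UMIs give. TMM factors were 1.0 and 0.999. The alternatives on Pip, Wfdc18, haemoglobin, the 5% to under 20% class, the highest cell and the denominator without Pip and Wfdc12 were added after the data were seen. No paired analysis was possible because each genotype has 1 library, which also leaves no replicate to leave out.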
